A study of Mus musculus with 24 samples.

Results

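The transcripts of 9 transcription factors that set naive, memory and effector fates of T cells were examined: Tcf7, Lef1, Bach2, Id2, Id3, Foxo1, Foxp1, Satb1 and Ets1. They were chosen by name, and every array probe carrying 1 of these names was taken, which gave 21 probes of 41174 on the array. Probes were kept if 3 or more arrays of some group showed a spot well above background, and 20 of the 21 did, 1 dim Bach2 probe being the exception. The 9 genes were thus all measured, among 16489 genes tested.

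The RNA came from CD4 T cells of female C57BL/6 mice, hybridised to 24 1-colour Agilent arrays in 6 groups of 4. Conditional knockout (CKO) mice lacked Trim28, which encodes a corepressor recruited to chromatin by KRAB zinc finger proteins, in T cells, and wild-type (WT) mice, described as age-matched, were the controls. The mice were 6 or 7 weeks old in every group. In both genotypes the stimulated naive groups held 2 samples aged 6 and 2 aged 7 weeks. The unstimulated naive groups of both genotypes held 3 aged 6 and 1 aged 7 weeks. CKO Treg came from 2 samples aged 6 and 2 aged 7 weeks and WT Treg from 3 aged 6 and 1 aged 7 weeks. Ages were thus matched between genotypes in naive cells, but not between stimulated and unstimulated cells. Nor were they matched between CKO Treg and WT Treg or CKO unstimulated cells. In each genotype there were naive cells (sorted as CD4+ CD62+ CD25-) stimulated for 13 h on plates coated with anti-CD3 and anti-CD28, regulatory T cells (Treg, sorted as CD4+ CD62+ CD25+), and naive cells without stimulation. Each array was a replicate, and nothing in the labels says whether replicates came from separate mice, so p-values measure the spread between arrays. One label conflict touches the Treg comparison: the treatment field of the CKO Treg samples reads as stimulated through the T cell receptor, that of the WT Treg samples as unstimulated, while the titles and the design text describe both as sorted Treg. The Cre driver of the knockout was not given in the sources used here.

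TCF-1 (the product of Tcf7) and LEF-1 are related DNA-binding proteins that keep T cells in a quiescent, self-renewing state and repress effector programmes. FOXO1 drives genes of naive homing and survival, such as Klf2, S1pr1 and Il7r, and is exported from the nucleus when receptor signalling activates AKT. FOXP1 holds naive T cells in quiescence, BACH2 represses AP-1-driven effector genes, ID2 and ID3 block the E proteins from binding DNA, SATB1 organises chromatin in thymocytes and T cells, and ETS1 is an abundant lymphocyte factor needed for naive T cell homeostasis.

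The starts of 8 of the 9 genes were matched by symbol to RefSeq sequence on mouse build GRCm38.p6, with 18 starts in all. The 250 bases before a start are shown for Satb1 and Foxo1, whose levels differed most clearly between CKO and WT stimulated cells, and for Id3 and Bach2, which moved the opposite way with stimulation. Capitals mark the letters of a motif found on either strand.

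Satb1, second of 5 starts, chr17:51832648-51832897, minus strand: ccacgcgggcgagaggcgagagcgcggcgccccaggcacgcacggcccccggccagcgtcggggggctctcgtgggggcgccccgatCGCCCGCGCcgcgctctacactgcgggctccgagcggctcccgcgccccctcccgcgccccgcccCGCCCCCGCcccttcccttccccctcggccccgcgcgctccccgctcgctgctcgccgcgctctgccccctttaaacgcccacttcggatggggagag
Foxo1, chr3:52268087-52268336, plus strand: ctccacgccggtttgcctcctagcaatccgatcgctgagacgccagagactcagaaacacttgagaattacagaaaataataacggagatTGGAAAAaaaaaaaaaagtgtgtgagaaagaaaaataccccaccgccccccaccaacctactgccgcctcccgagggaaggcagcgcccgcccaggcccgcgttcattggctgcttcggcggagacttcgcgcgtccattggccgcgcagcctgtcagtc
Id3, chr4:136143572-136143821, plus strand: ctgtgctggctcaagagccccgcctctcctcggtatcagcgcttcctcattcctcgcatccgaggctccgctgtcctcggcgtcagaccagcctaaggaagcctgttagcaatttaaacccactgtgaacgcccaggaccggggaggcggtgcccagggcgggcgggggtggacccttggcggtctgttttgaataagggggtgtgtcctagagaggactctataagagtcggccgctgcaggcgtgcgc
Bach2, chr4:32417185-32417434, plus strand: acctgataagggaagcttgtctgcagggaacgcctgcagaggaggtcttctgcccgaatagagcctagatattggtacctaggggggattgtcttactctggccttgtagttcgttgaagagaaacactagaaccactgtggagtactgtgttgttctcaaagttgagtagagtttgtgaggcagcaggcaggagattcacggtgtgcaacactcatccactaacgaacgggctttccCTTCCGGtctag

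The Satb1 window held the EGR letters GCGNGGGCG at 2 places on the other strand. No window of the other Satb1 starts held these letters. Those letters occurred in 3 of the 18 windows of these genes and in 4.7% of 32851 windows of the same length over all genes. The Foxo1 window held the NFAT letters TGGAAAA, present in 5.93% of all windows. The Bach2 window held the ETS letters CCGGAAG on the other strand, present in 2 of the 18 windows and in 6.91% of all. The Id3 window held none of the 8 motifs searched, which also included the TCF/LEF letters CTTTGNT (4 of 18 windows, 16% of all), the CAGCTG E-box (4 of 18, 13% of all), the FOXO letters TGTTTAC (0 of 18, 3.17% of all), the AP-1 letters TGANTCA (0 of 18, 6.75% of all) and the CRE letters TGACGTCA (0 of 18, 1.55% of all). Matches of different motifs did not overlap. Windows of neighbouring starts share bases (both for Lef1 and for Satb1), so the 18 windows are not independent.

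All levels below are log2 of the array signal relative to the array's 75th percentile, so 1 unit is a doubling of signal. Levels of different genes, or of different probes of a gene, cannot be set against each other. Each gene is represented by its brightest probe, and a gene was called changed where limma's adjusted p was under 0.05. Trim28 fell to 0.97 ± 0.31 in CKO stimulated cells, against 3.66 ± 0.20 in WT stimulated cells, and was also lower in CKO Treg (0.43 ± 0.24, WT 2.00 ± 0.19) and CKO unstimulated cells (0.94 ± 0.29, WT 2.45 ± 0.11; SD, n = 4 each). Treg arrays tended to be dimmer, with 75th percentiles from 31.3 to 200.2, against 154 to 372 for naive arrays. Replicate arrays correlated at 0.961 to 0.993 across genes. Cd3e, Cd3d, Cd4, Cd5 and Lck were well above background in all 6 groups, and Foxp3 averaged 3.34 and 3.26 in CKO and WT Treg, against -1.82 and -2.78 in CKO and WT unstimulated naive cells.

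**Figure D1:**
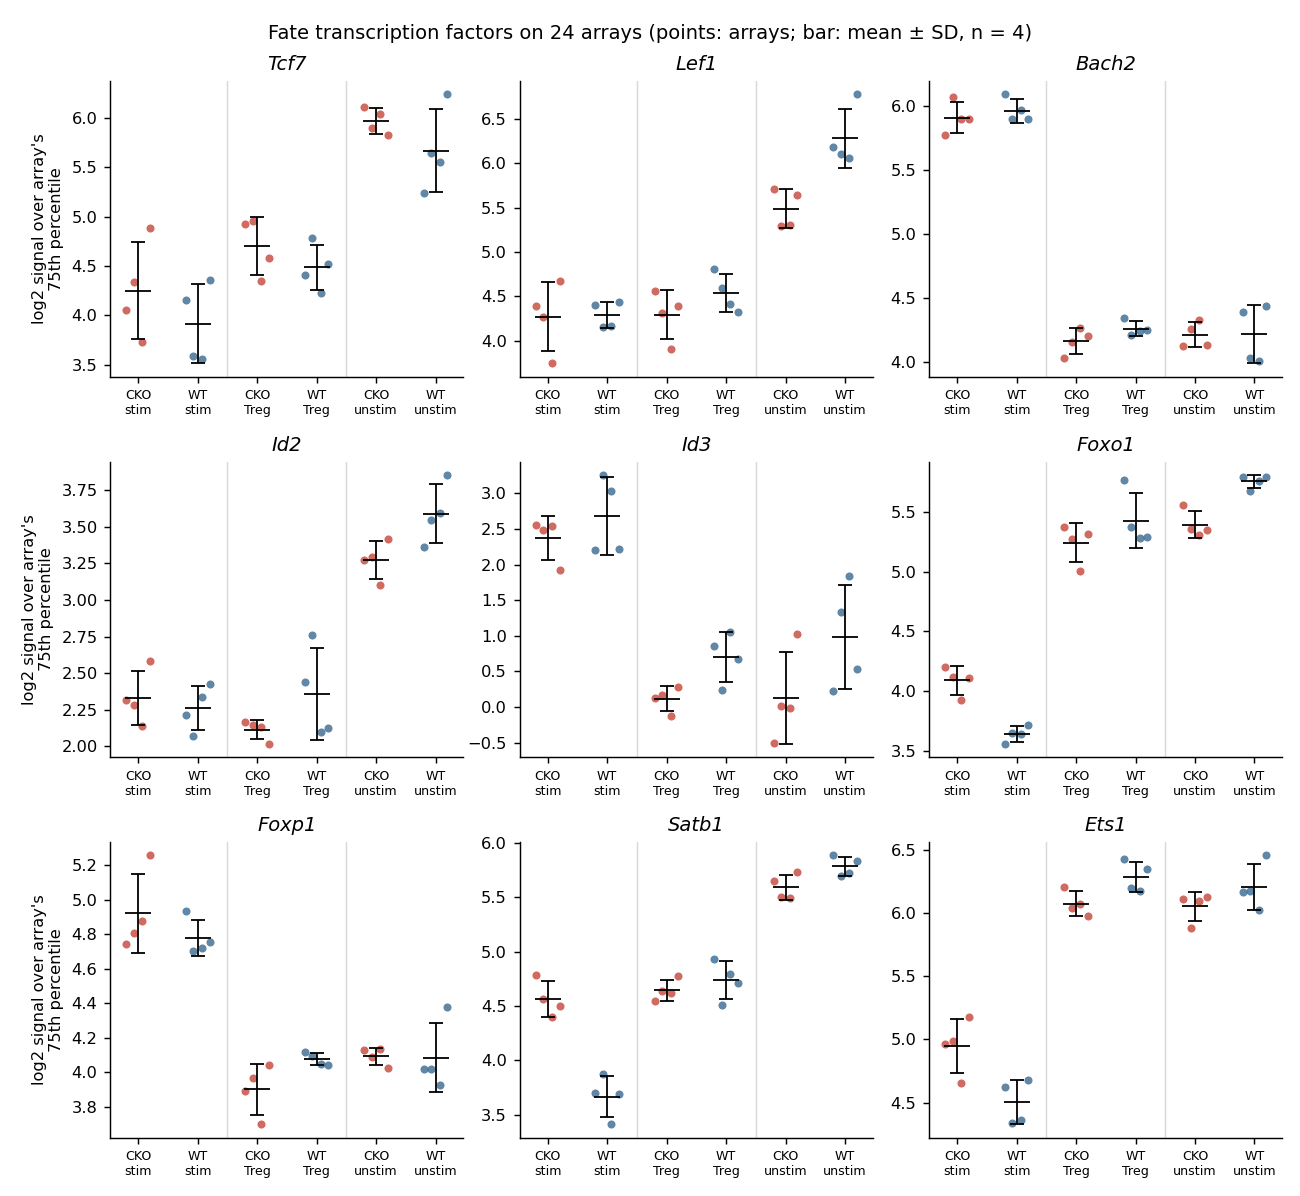
Log2 signal over the array's 75th percentile (vertical axis, a separate range for each gene) of the 9 genes on 24 arrays, by group, with the mean and SD of 4 arrays. Tcf7, Lef1, Id2, Foxo1, Satb1 and Ets1 are low in stimulated cells and Bach2, Id3 and Foxp1 are high there, and for Satb1 and Foxo1 the CKO stimulated arrays all lie above the WT stimulated arrays.

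Stimulation for 13 h moved all 9 genes in both genotypes, 6 down and 3 up. Tcf7, Lef1, Id2, Foxo1, Satb1 and Ets1 fell and Bach2, Id3 and Foxp1 rose, and in each case the stimulated and unstimulated arrays did not overlap. Change was common in this comparison: 60.2% of all genes tested were called in CKO cells (29.7% higher, 30.4% lower) and 61.9% in WT cells (31.7% higher, 30.2% lower), and the groups did not overlap for 56.9% and 55.2% of genes. The median change of the 9 genes was -1.03 in CKO and -1.70 in WT cells, where the median of all genes was -0.08 and -0.03.

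Foxo1 had levels of 4.20, 4.11, 3.92 and 4.11 in CKO stimulated cells, against 5.56, 5.35, 5.30 and 5.35 in CKO unstimulated cells. In WT cells it had 3.56, 3.64, 3.64 and 3.72 when stimulated, against 5.79, 5.68, 5.75 and 5.79 when unstimulated. Foxo1 thus fell by 1.30 ± 0.11 (log2, SE) in CKO cells (2.47-fold, adjusted p = 3.8e-09) and by 2.11 ± 0.11 in WT cells (4.33-fold, adjusted p = 1.9e-12).

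Satb1 had levels of 4.79, 4.56, 4.40 and 4.50 in CKO stimulated cells, against 5.65, 5.50, 5.49 and 5.73 in CKO unstimulated cells. In WT cells it had 3.70, 3.87, 3.41 and 3.69 when stimulated, against 5.88, 5.70, 5.72 and 5.83 when unstimulated. The fall was 2.04-fold in CKO cells (log2 change -1.03 ± 0.12, adjusted p = 1.8e-07) and 4.33-fold in WT cells (log2 change -2.12 ± 0.12, adjusted p = 2.8e-12).

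Ets1 fell 2.15-fold in CKO and 3.26-fold in WT cells, with stimulated means of 4.95 ± 0.22 and 4.50 ± 0.17 against unstimulated means of 6.05 ± 0.12 and 6.21 ± 0.18. Lef1 fell 2.33-fold in CKO and 3.99-fold in WT cells. Its stimulated levels lay close together in both genotypes, at 4.27 ± 0.39 in CKO and 4.29 ± 0.15 in WT cells. Tcf7 fell by nearly the same amount in both, with log2 changes of -1.72 ± 0.24 in CKO and -1.75 ± 0.24 in WT cells. Id2, which antagonises E proteins and favours effector differentiation, fell 1.92-fold in CKO and 2.51-fold in WT cells.

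Bach2 had the smallest SE of the 3 genes that rose (0.11 on the log2 scale). Its levels were 5.77, 6.07, 5.90 and 5.90 in CKO stimulated cells, against 4.13, 4.26, 4.33 and 4.14 in CKO unstimulated cells. In WT cells they were 6.09, 5.89, 5.97 and 5.89 when stimulated, against 4.39, 4.03, 4.01 and 4.44 when unstimulated. The rise was 3.23-fold in CKO and 3.35-fold in WT cells (adjusted p = 4.4e-11 and 1.6e-11).

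Id3, the other inhibitor of E proteins, rose 4.75-fold in CKO and 3.24-fold in WT cells from levels that varied widely between unstimulated arrays (-0.51 to 1.03 in CKO, 0.23 to 1.84 in WT). Foxp1 rose 1.77-fold in CKO and 1.62-fold in WT cells on its brightest probe. Its second probe rose 2.51-fold and 1.80-fold. On the third probe of Foxp1, which is dim, it rose 2.00-fold in CKO cells and was not called in WT cells (adjusted p = 0.28). Over all 20 probes, 5 rose and 15 fell in CKO and 4 rose and 15 fell in WT cells, beside 59.7% and 61.7% of all probes called.

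**Figure D2:**
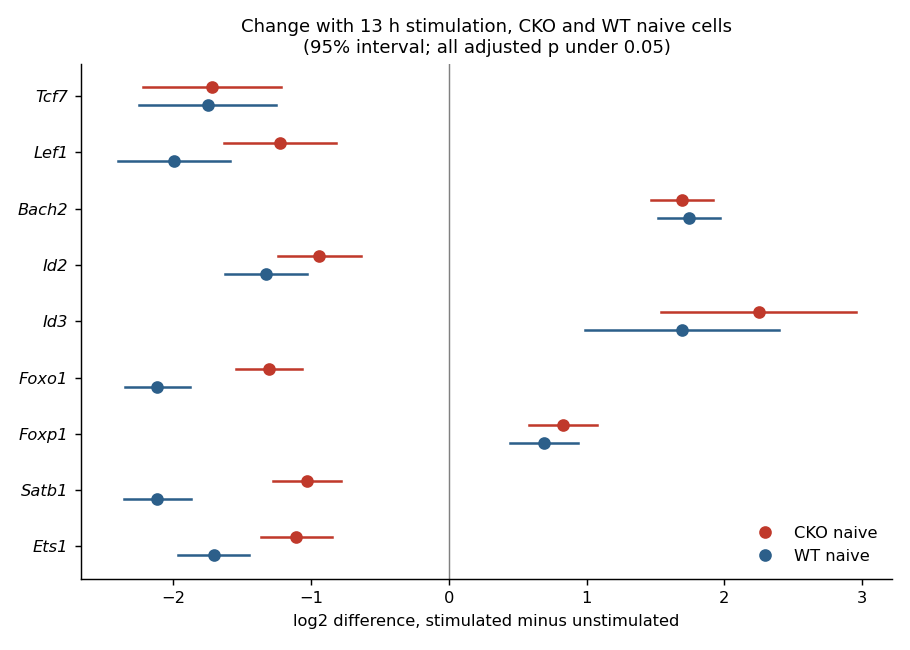
Log2 difference, stimulated minus unstimulated (horizontal axis), of the 9 genes in CKO (red, upper of each pair) and WT (blue, lower) naive cells, with 95% intervals. The falls of Satb1 and Foxo1 are -1.03 and -1.30 in CKO cells and -2.12 and -2.11 in WT cells, with intervals that do not overlap, while Bach2 rises by 1.69 and 1.74.

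Stimulated and unstimulated cells differed also in markers of other cell types, whose part in these changes was not tested. The summed level of 9 B cell markers was 1.37 to 5.53 in CKO stimulated cells, against 14.9 to 50.5 in CKO unstimulated cells, and 0.424 to 2.01 against 5.85 to 22.7 in WT cells. The summed level of 9 myeloid and dendritic markers was 1.85 to 15.6 against 30.4 to 73.4 in CKO cells and 0.995 to 5.35 against 19.6 to 71.4 in WT cells. In WT stimulated cells no array showed Itgam or Itgax well above background. All 9 myeloid markers were lower in stimulated cells of both genotypes, as were 8 of 9 B cell markers in CKO and 9 of 9 in WT cells. Fewer cells expressing a gene and less RNA per cell cannot be told apart in these bulk samples.

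The factors and targets that work with these 9 genes were counted from fixed lists. Of 14 FOXO relatives and FOXO1 targets, 11 fell and 2 rose in CKO cells, and 9 fell and 2 rose in WT cells. The largest falls were those of Il7r, the receptor chain for IL-7 (-4.36 ± 0.30 in CKO, -6.43 ± 0.30 in WT), of S1pr1, the receptor for egress from lymph nodes (-3.22 ± 0.29 and -5.48 ± 0.29), of Klf2, which activates S1pr1 (-3.51 ± 0.27 and -5.01 ± 0.27), and of Pik3ip1, an inhibitor of PI3 kinase (-3.56 ± 0.21 and -4.92 ± 0.21). Bcl2l11, which encodes the pro-apoptotic protein BIM, and Foxp4 were the 2 that rose.

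Among 14 partners of TCF and LEF, 9 fell and 0 rose in each genotype. Axin2, a target and inhibitor of Wnt signalling, changed by -2.25 ± 0.25 in CKO and -2.69 ± 0.25 in WT cells, and Tle5, a short Groucho protein, by -1.59 ± 0.18 and -2.46 ± 0.18. Of 7 partners and targets of BACH2, 1 rose and 4 fell in CKO and 1 rose and 5 fell in WT cells. Mafg, a small MAF protein that pairs with BACH2, rose by 2.11 ± 0.27 and 1.92 ± 0.27, and Maff, another, fell by 2.95 ± 0.29 and 2.77 ± 0.29. Of 17 effector fate factors, 5 rose and 9 fell in CKO and 6 rose and 8 fell in WT cells, with Irf4, which is induced by receptor signalling, higher by 2.98 ± 0.21 and 3.58 ± 0.21 and Gata3, the Th2 factor, lower by 2.19 ± 0.15 and 3.02 ± 0.15 on the log2 scale. Of 14 ETS and RUNX relatives measured, 3 rose and 6 fell in CKO and 4 rose and 7 fell in WT cells. Of 5 chromatin partners of SATB1 measured, 0 rose and 2 fell in CKO and 1 rose and 2 fell in WT cells, and of 6 E proteins and relatives measured, 4 fell in CKO and 2 in WT cells. Over the lists together, 72.4% of 76 genes were called in each genotype.

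In stimulated cells, Satb1, Foxo1 and Ets1 were higher in CKO than in WT cells, and no other of the 9 genes was called. Satb1 was 1.86-fold higher (log2 difference 0.89 ± 0.12, adjusted p = 2.2e-05), Foxo1 1.36-fold (0.45 ± 0.11, adjusted p = 0.0086) and Ets1 1.36-fold (0.44 ± 0.12, adjusted p = 0.014). The 3 calls of 9 stand beside 24% of all genes called in this comparison (11.6% higher, 12.4% lower), so their number is not far from the background. With the percentile taken over probes well above background on all arrays, 69.5% of the called genes were higher, in place of 48.2%. The median difference of the 9 genes was 0.14, against -0.05 over all genes.

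The 4 CKO arrays of Satb1 (4.40 to 4.79) all lay above the 4 WT arrays (3.41 to 3.87). Foxo1 was likewise separate, at 3.92 to 4.20 in CKO and 3.56 to 3.72 in WT cells. The Ets1 arrays overlapped, at 4.66 to 5.18 in CKO and 4.34 to 4.68 in WT cells. The groups did not overlap for 2 of these 9 genes and for 25.6% of all genes. Each pair of CKO and WT arrays with the same replicate number lay on 1 slide, and within the 4 slides the difference was 0.69 to 1.09 for Satb1, 0.28 to 0.64 for Foxo1 and 0.29 to 0.64 for Ets1, positive on every slide. With normexp background correction none of the 3 was called, and Ets1 came to 0.27 (adjusted p = 0.57). The Ets1 call was also lost with only the compared arrays (adjusted p = 0.074) and without WT stimulated replicate 2 (adjusted p = 0.055).

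The other probes gave more of the picture. The second Satb1 probe had levels of 2.82, 2.81, 3.30 and 2.69 in CKO stimulated cells, against 0.84, 1.35, 1.80 and 1.85 in WT stimulated cells, with no overlap and a 2.72-fold difference (adjusted p = 0.0029). The second Foxo1 probe was 1.22-fold higher in CKO cells and was not called (adjusted p = 0.079). Of 4 Ets1 probes, 3 were called higher and 1 was not (adjusted p = 0.29). On the third probe Foxp1 was 2.01-fold higher in CKO cells (adjusted p = 0.013), while the other 2 were not called (adjusted p = 0.41 and 0.78). On its brightest probe the Foxp1 difference was 0.14, and it was called higher under 4 alternatives: quantile normalisation (0.41), the percentile over probes well above background on all arrays (0.30), the authors' values (0.41) and the mean of its kept probes (0.40). Over all probes, 7 of the 20 probes of these genes were called higher and 0 lower, beside 22.4% of all probes called either way.

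Among 14 FOXO relatives and FOXO1 targets, 7 were higher in CKO stimulated cells and 0 lower, with a list median of 0.52 against -0.05 over all genes. S1pr1 averaged 3.12 ± 0.42 in CKO and 0.87 ± 0.73 in WT stimulated cells, a 4.76-fold difference (adjusted p = 2.0e-05). Pik3ip1 was 3.47-fold, Klf2 2.80-fold, Il7r 2.40-fold, Txnip (an inhibitor of glucose uptake) 1.92-fold and Cdkn1b (the cell cycle inhibitor p27) 1.64-fold higher. In the same comparison 2 of 14 TCF and LEF partners were higher and 2 lower. The higher ones were the corepressor Tle4 (0.91 ± 0.10) and Apc (0.64 ± 0.15), a part of the complex that degrades beta-catenin, and the lower ones were the corepressor Tle3 (-0.62 ± 0.16) and the beta-catenin cofactor Bcl9 (-1.15 ± 0.19). Bach1, a relative of Bach2, was higher by 1.10 ± 0.14. Of 17 effector fate factors 4 were higher and 2 lower, with the higher ones including the repressor Bcl6 (1.16 ± 0.18) and Gata3 (0.76 ± 0.15). The lower ones were Eomes, a T-box factor of effector and memory cells, which averaged -4.14 ± 0.42 in CKO and -1.23 ± 1.02 in WT stimulated cells (log2 difference -2.91 ± 0.61, adjusted p = 0.0023), and Maf (-0.69 ± 0.24). Of 14 ETS and RUNX relatives 3 were higher and 3 lower. Elf1 (1.32 ± 0.36), Runx2 (1.07 ± 0.26) and Runx1 (0.60 ± 0.10) were the higher ones, and Etv6 (-0.61 ± 0.16) was among the lower ones. No SATB1 partner of 5 was called, and 1 of 6 E proteins and relatives measured was called higher. Over the lists together, 32.9% of 76 genes were called in stimulated cells, beside 24% of all genes.

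**Figure D3:**
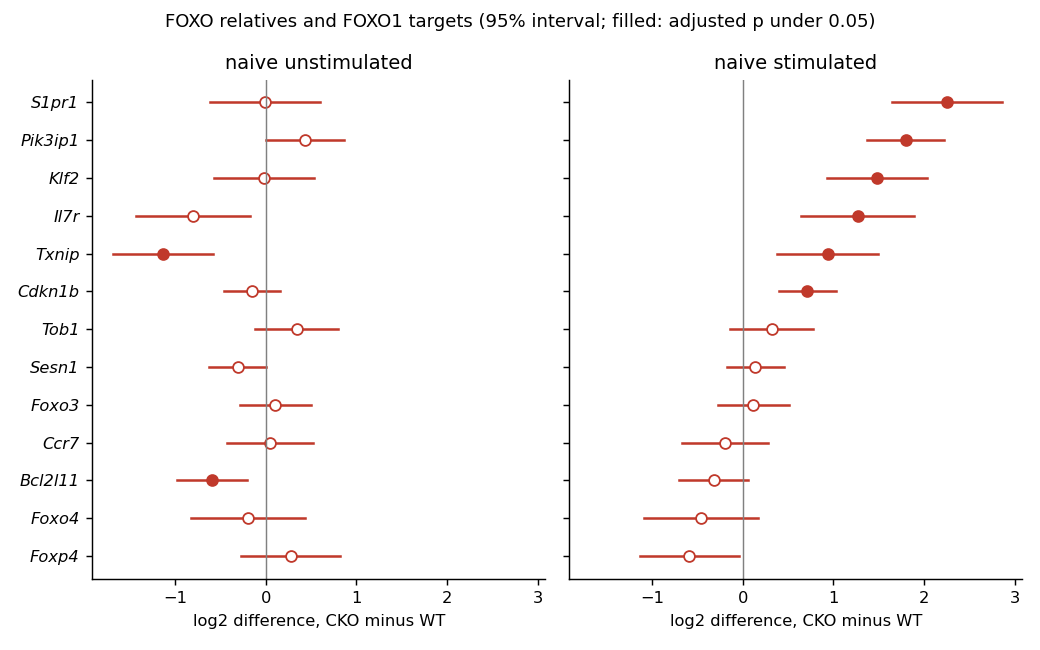
Log2 difference, CKO minus WT (horizontal axis), of the FOXO relatives and FOXO1 targets reported here in unstimulated (left) and stimulated (right) naive cells, with 95% intervals. In stimulated cells the filled points, from Cdkn1b (0.71) to S1pr1 (2.25), are all higher in CKO cells, and in unstimulated cells Txnip and Bcl2l11 are lower.

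B cell markers were also higher in CKO stimulated cells, with summed levels of 1.37 to 5.53 against 0.424 to 2.01 in WT cells and 3 of 9 called higher, and 3 of 6 Treg markers were called higher (Foxp3 averaged -1.31 in CKO and -3.76 in WT cells). Of 8 CD8, NK and unconventional T cell markers 2 were called higher, with summed levels of 7.09 to 11.3 in CKO and 6.02 to 9.51 in WT cells. Of 6 markers of T cell receptor activation 2 were higher and 2 lower, with summed levels of 232.5 to 360.2 in CKO and 279.3 to 313.1 in WT cells. Their part in the differences was not tested.

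In unstimulated naive cells the direction differed: Lef1 and Foxo1 were lower in CKO cells and none of the 9 genes was higher. Lef1 had levels of 5.71, 5.30, 5.30 and 5.65 in CKO unstimulated cells, against 6.18, 6.11, 6.07 and 6.78 in WT unstimulated cells. Every CKO array lay below every WT array, with a 1.73-fold difference (log2 difference -0.79 ± 0.20, adjusted p = 0.0097). Foxo1, at 5.30 to 5.56 in CKO and 5.68 to 5.79 in WT cells, was 1.29-fold lower (-0.36 ± 0.11, adjusted p = 0.032). The 2 calls of 9 stand beside 18.7% of all genes called (7.83% higher, 10.9% lower). The groups did not overlap for these 2 genes and for 20.5% of all genes. Within the 4 slides Lef1 differed by -1.13 to -0.47 and Foxo1 by -0.45 to -0.24.

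The Lef1 call rests on 2 of its 3 probes, and it was lost with normexp background correction. The second probe was 4.49 to 4.79 in CKO and 5.55 to 5.62 in WT cells, a 1.87-fold difference (adjusted p = 3.5e-04). The third probe, which is dim, pointed the other way, at 0.26 ± 0.35 in CKO and -0.52 ± 0.71 in WT cells, and was not called (adjusted p = 0.15), and with the mean of the 3 probes Lef1 was no longer called (-0.31, adjusted p = 0.12). The Foxo1 call was kept in only 2 of 8 fits that left out 1 array. It was lost without replicate 1, 2 or 3 of the WT or replicate 2, 3 or 4 of the CKO unstimulated arrays, with adjusted p up to 0.089. It was also lost with normexp background correction, with quantile normalisation and with the authors' values. The same held without the filter on dim probes and with only the compared arrays. Under these alternatives its adjusted p reached 0.41, while the Foxo1 value stayed between -0.42 and -0.21 under every alternative. Probe by probe, 6 of 20 were lower and 0 higher, beside 19.4% of all probes called, and these 6 included the second probes of Id2 (-0.53, adjusted p = 0.033) and Foxp1 (-0.43, adjusted p = 0.012) and the third probe of Ets1 (-0.44, adjusted p = 0.020).

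Id3 varied most: it had levels of -0.51, 0.01, -0.02 and 1.03 in CKO unstimulated cells, against 0.23, 1.34, 1.84 and 0.53 in WT unstimulated cells, and was not called (log2 difference -0.85 ± 0.34, adjusted p = 0.080). Tcf7 (0.30 ± 0.24), Bach2 (0.00 ± 0.11), Foxp1 (0.01 ± 0.12), Satb1 (-0.19 ± 0.12), Ets1 (-0.15 ± 0.12) and Id2 (-0.32 ± 0.14) were not called either. The 95% interval of the Bach2 difference ran from -0.23 to 0.22, and that of Tcf7 from -0.20 to 0.80. Id3 was called lower with array weights, though not under the other 10 alternatives. It was also called lower without WT unstimulated replicate 1, WT unstimulated replicate 4 or CKO unstimulated replicate 4. Among these settings its adjusted p was as low as 0.0080.

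**Figure D4:**
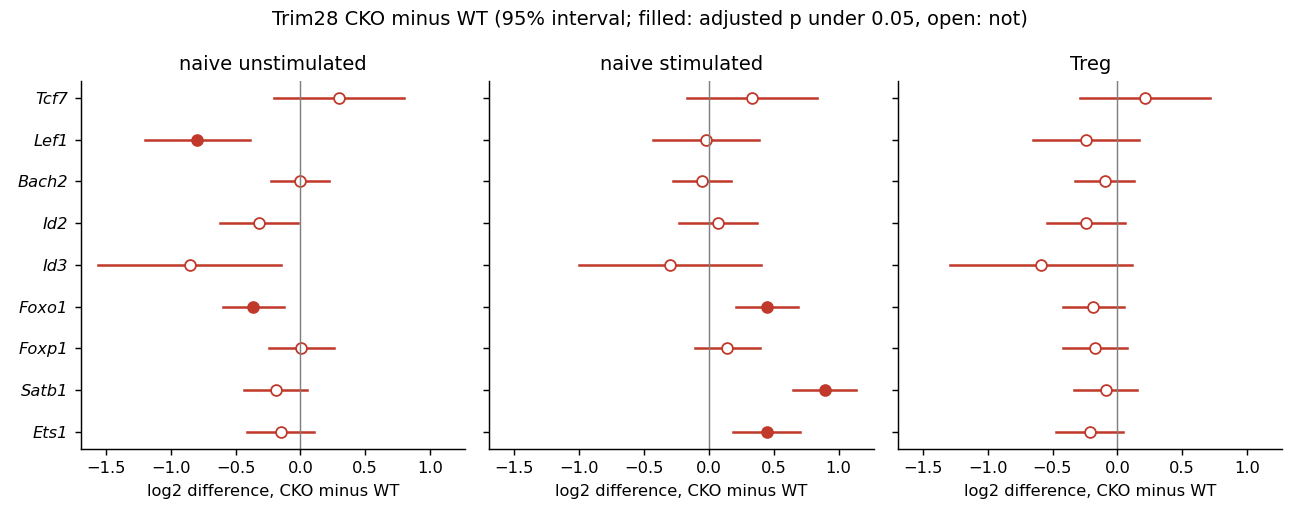
Log2 difference, CKO minus WT (horizontal axis), of the 9 genes in 3 states, with 95% intervals, filled where the adjusted p was under 0.05. Lef1 and Foxo1 are below 0 in unstimulated cells, Satb1, Foxo1 and Ets1 above 0 in stimulated cells, and no gene is called in Treg.

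The FOXO1 target Txnip was lower in CKO unstimulated cells by 1.13 ± 0.27 on the log2 scale and Bcl2l11 by 0.59 ± 0.19, the only 2 of the 14 on that list called. Among TCF and LEF partners Apc was higher (0.60 ± 0.15) and 3 were lower, the lower ones being Tle5 (-0.98 ± 0.18), Bcl9l (-0.91 ± 0.20) and Pygo2 (-0.55 ± 0.18). Among 17 effector fate factors 3 were higher and 0 lower: the repressor Bhlhe40 (1.58 ± 0.25), the Th1 factor Tbx21 (1.38 ± 0.45) and Bcl6 (0.59 ± 0.18). Of 14 ETS and RUNX relatives, Ets2, Cbfb and Gabpa were lower and 0 were higher. Of 6 E proteins and relatives, Tcf4 (1.31 ± 0.30) and Lyl1 (1.30 ± 0.42) were higher and Tcf12 (-0.56 ± 0.19) was lower. Of the BACH2 partners, Nfe2l2 alone of 7 was called (-0.52 ± 0.16), and of the 5 SATB1 partners none. Over the lists together, 21.1% of 76 genes were called in unstimulated cells, close to the 18.7% of all genes.

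Other cell type markers moved with genotype here as well. The summed level of B cell markers was 14.9 to 50.5 in CKO and 5.85 to 22.7 in WT unstimulated cells, that of myeloid markers 30.4 to 73.4 and 19.6 to 71.4, and that of CD8, NK and unconventional T cell markers 17.0 to 38.2 and 12.5 to 21.9. Of the markers, 1 of 9, 0 of 9 and 2 of 8 were called higher, all were well above background in both groups, and 4 of 6 Treg markers were higher in CKO cells. Of 5 CD4 T cell markers 2 were called lower, with summed levels of 320.3 to 375.7 in CKO and 370.9 to 474.1 in WT cells, as was 1 of 6 markers of T cell receptor activation. Their part in the lower Lef1 and Foxo1, and in the differences of listed genes such as Tcf4 and Lyl1, was not tested.

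**Figure D5:**
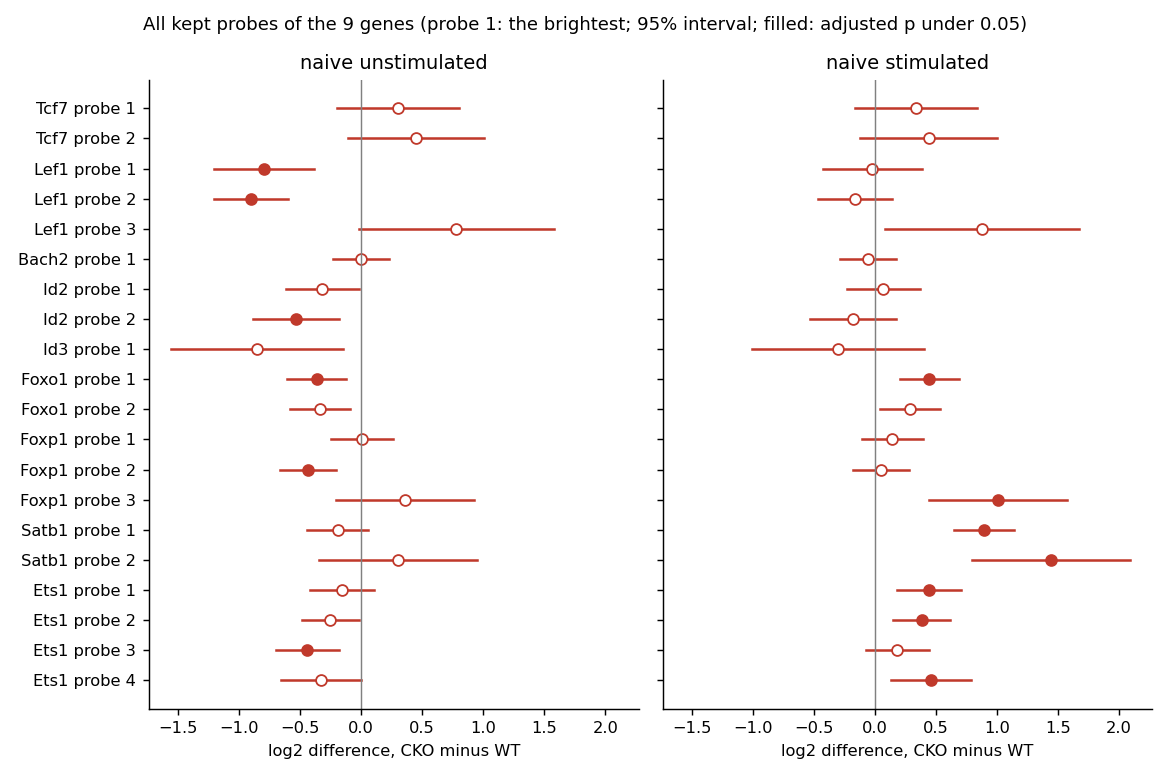
Log2 difference, CKO minus WT (horizontal axis), of the 20 kept probes of the 9 genes in unstimulated (left) and stimulated (right) naive cells, with 95% intervals, filled where the adjusted p over all probes was under 0.05. The 2 brighter Lef1 probes lie at -0.79 and -0.90 and the third at 0.78 in unstimulated cells, and both Satb1 probes are above 0 in stimulated cells.

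Whether the CKO difference itself changed with stimulation was tested as an interaction, which is the same as comparing the size of the stimulation response between genotypes. It was called for Satb1 (1.09 ± 0.17, adjusted p = 6.1e-04) and Foxo1 (0.81 ± 0.16, adjusted p = 0.0061), 2 of 9 genes beside 3.42% of all genes called (2.12% higher). For both genes the fall with stimulation was smaller in CKO than in WT cells. The interactions of Lef1 (0.77 ± 0.28, adjusted p = 0.15) and Ets1 (0.60 ± 0.18, adjusted p = 0.067) were not called on their brightest probes. That of Lef1 was called under 5 of 11 alternatives and that of Ets1 under 7 of 11, both with the replicate block among them (adjusted p = 0.041 and 0.025), and both also without CKO stimulated replicate 3 (0.95, adjusted p = 0.0499, and 0.69, adjusted p = 0.027). The second Foxo1 probe (0.63 ± 0.17, adjusted p = 0.044) and the second Ets1 probe (0.64 ± 0.16, adjusted p = 0.032) were called, and the second Satb1 probe was not (1.14 ± 0.44, adjusted p = 0.20). In all 4 of 20 probes were called, beside 2.9% of all probes. For Tcf7 (0.03 ± 0.34) and Bach2 (-0.05 ± 0.15) the intervals ran from -0.67 to 0.74 and from -0.37 to 0.27. The median over the 9 genes was 0.55, with 8 of 9 values above 0, against a median of -0.02 over all genes.

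The interaction was also called for 7 of 14 FOXO relatives and targets, all in the same direction, among them S1pr1 (2.26 ± 0.41), Txnip (2.07 ± 0.38), Il7r (2.07 ± 0.43), Klf2 (1.50 ± 0.37), Pik3ip1 (1.36 ± 0.29) and Cdkn1b (0.87 ± 0.21). Of the TCF and LEF partners Bcl9l and Tle4 (1.06 ± 0.15) were called higher, of the BACH2 list 2 of 7 including Bach1 (0.83 ± 0.20), of the ETS and RUNX list Runx1 higher and Etv6 lower, and of the effector factors 2 of 17 higher, including Gata3, and 1 lower, Tbx21. Of all 76 listed genes, 19.7% were called. The interaction reuses the arrays of the comparisons above, so its calls are not separate evidence.

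In Treg no member was called between genotypes, beside 4.31% of all genes. The largest differences were those of Id3 (-0.59 ± 0.34, adjusted p = 0.49), Lef1 (-0.24 ± 0.20) and Id2 (-0.24 ± 0.14), and 8 of the 9 values were below 0. The 75th percentiles of the arrays were 31.3, 78.4, 75.4 and 115.5 in CKO Treg and 187.4, 200.2, 104.9 and 53.9 in WT Treg. The part of array brightness in these values was not tested. Foxp1 was the 1 gene whose arrays did not overlap, at 3.70 to 4.04 in CKO and 4.04 to 4.12 in WT Treg, beside 8.33% of all genes. The intervals leave room for changes: that of Satb1 ran from -0.33 to 0.15 and that of Id3 from -1.29 to 0.12. Without adjustment 0 of the 9 genes had p under 0.05. On the probe level also 0 of 20 were called, beside 3.74% of all probes. The interaction of genotype with the step from naive cells to Treg was called for 0 of 9 genes, beside 0.394% of all genes, with Lef1 the nearest (0.55 ± 0.28, unadjusted p = 0.058). Of 14 FOXO relatives and FOXO1 targets, only Sesn1 was called between CKO and WT Treg (-0.62 ± 0.15). Txnip was not called, though its arrays did not overlap (2.79 to 3.17 in CKO and 3.24 to 4.01 in WT Treg). Of 17 effector fate factors 0 were higher and 2 lower. Rora, a Th17 and tissue Treg factor, was lower by 1.51 ± 0.22. Eomes averaged -4.27 ± 1.54 in CKO and -0.56 ± 0.36 in WT Treg (log2 difference -3.71 ± 0.61, adjusted p = 4.9e-04), with 1 of 4 CKO and 4 of 4 WT arrays well above background. Over the lists together, 5.26% of 76 genes were called between CKO and WT Treg, close to the 4.31% of all genes.

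Treg had less Tcf7, Lef1, Id2 and Satb1 than unstimulated naive cells in both genotypes. Lef1 had levels of 4.56, 4.31, 3.91 and 4.39 in CKO Treg, and of 4.81, 4.59, 4.41 and 4.32 in WT Treg, all below the naive arrays of their genotype. It was 2.29-fold lower in CKO and 3.36-fold lower in WT Treg (adjusted p = 1.3e-04 and 8.3e-07). Tcf7 was 2.41-fold lower in CKO and 2.27-fold lower in WT Treg, Id2 2.23-fold and 2.35-fold, and Satb1 1.93-fold and 2.07-fold. The arrays did not overlap for any of the 4 genes, nor for 30.9% and 34.8% of all genes in CKO and WT. The members called, 4 of 9 in CKO and 5 of 9 in WT Treg, stand beside 28.3% and 48.4% of all genes called, of which 16.7% and 29.4% of all genes were lower and, in WT, 18.9% higher. Of 20 probes, 8 were lower in CKO Treg, and 9 were lower and 1 higher in WT Treg, beside 24.4% and 46% of all probes called.

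Bach2, Id3, Foxp1 and Ets1 were not called between Treg and naive cells in either genotype, and Foxo1 was called lower in WT Treg only (-0.33 ± 0.11, adjusted p = 0.022), where the CKO value was -0.15 ± 0.11 and the difference between genotypes was not called (0.18 ± 0.16, adjusted p = 0.63). These WT values depended on how the arrays were normalised. With quantile normalisation Foxo1 came to 0.12 (adjusted p = 0.32) and Foxp1 to 0.36 (adjusted p = 0.0087). Bach2 came to 0.43 (adjusted p = 0.020) and Ets1 to 0.52 (adjusted p = 8.9e-04), so no direction is given for these 4 genes. The part of array brightness was not tested. The probes of 2 genes disagreed as well: the second Satb1 probe did not differ beyond its error (-0.45 ± 0.31 in CKO, 0.16 ± 0.31 in WT), and the second Foxp1 probe was lower (-0.35 ± 0.11 and -0.48 ± 0.11) while the third was higher in WT Treg (1.42 ± 0.27). The third Lef1 probe was not called in either genotype (-0.12 ± 0.38 and 0.39 ± 0.38). Summed B cell markers were 4.19 to 10.3 in CKO Treg, against 14.9 to 50.5 in CKO naive cells, and 3.63 to 7.62 in WT Treg, against 5.85 to 22.7 in WT naive cells. Their part was not tested.

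The order of the 6 groups was thus not the same for all genes. For Foxo1 and Ets1 both stimulated groups stood apart below the other 4, with means of 4.09 in CKO and 3.64 in WT stimulated cells for Foxo1, and Treg and unstimulated naive arrays overlapped. For Bach2, Id3 and Foxp1 both stimulated groups stood above the other 4 on the brightest probe. This order did not hold on the third, dim Foxp1 probe. Its means were -0.18 in CKO and -1.18 in WT stimulated cells, against -0.57 in CKO and -0.12 in WT Treg. For Tcf7 the means were in the order unstimulated naive cells, Treg, stimulated cells, with Treg and stimulated arrays overlapping, and the arrays of CKO and WT cells overlapped in every state. For Lef1 the Treg and stimulated groups overlapped in level (4.29 in CKO Treg, 4.53 in WT Treg, 4.27 in CKO stimulated and 4.29 in WT stimulated cells), as they did for Id2. On the third Lef1 probe they did not overlap: its means were 0.15 in CKO and -0.13 in WT Treg, with -1.14 as the lowest array, and -2.07 in CKO and -2.95 in WT stimulated cells, with -1.34 as the highest. For Satb1 the CKO stimulated level (4.56 ± 0.16) was next to those of CKO and WT Treg (4.65 ± 0.10 and 4.74 ± 0.18), and the WT stimulated level (3.67 ± 0.19) stood below. On the second Satb1 probe both stimulated groups stood below Treg, at 2.69 to 3.30 in CKO and 0.84 to 1.85 in WT stimulated cells, against 3.77 to 5.36 in CKO and 4.76 to 5.20 in WT Treg.

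Across the 24 arrays Foxo1 and Ets1 followed each other closely (r = 0.97), as did Lef1 and Id2 (0.95) and Bach2 and Foxp1 (0.94), while Bach2 ran opposite to Foxo1 (-0.95) and Ets1 (-0.94). These values are a description over 6 groups of arrays that differ mainly by stimulation. Among 10616 other genes well above background in every group, those with the most similar profile were Stk4 and Emb for Tcf7 (r = 0.97 and 0.96), AU040320 and Bbs9 for Lef1 (0.96 and 0.96), Ipo4 and Noc4l for Bach2 (0.99 and 0.99), Enpp4 for Id2 (0.96), Eftud2 for Id3 (0.96), Armc3 and Card6 for Foxo1 (0.99 and 0.99), Ece1 for Foxp1 (0.98), Tle4 and Cnga1 for Satb1 (0.97 and 0.96) and Itga4 and Arrb1 for Ets1 (0.99 and 0.98).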

How the data were processed

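Total RNA was hybridised to 1-colour Agilent arrays, 6 slides of 4, scanned the same day. The deposited scanner files hold a processed signal per spot, an intensity on a linear scale that the authors obtained with Agilent Feature Extraction 9.5, per the submitters' processing notes and the file headers (9.5.3.1). The authors' normalized values, also a deposited intensity, had the same distribution in every column and served as an alternative. Outlier spots were left out (75 probe values). Signals were put on the log2 scale, and each array's 75th percentile was subtracted. Of 41174 probes, 25198 were well above background on at least 3 of 4 arrays of 1 group. Symbols came from the files, updated by RefSeq accession (22951 probes). A gene was its brightest kept probe. Group means of all 24 arrays were fitted with limma 3.58.1 in R 4.3.3, with 9 contrasts, 2-sided, adjusted over 16489 genes by Benjamini-Hochberg, and called at adjusted p under 0.05. The probe results are from a fit over the 25198 probes. The median SE of a log2 difference was 0.22, and the number of arrays limits the precision. Marker sums add linear signals relative to the 75th percentile. The code was tested on simulated data. Plots used Python 3.11.15 and matplotlib 3.10.9.

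The 9 genes, the companion and marker lists and the alternatives were chosen with earlier results of these data known. All 9 genes are named. From each companion list and comparison, examples were taken from the at most 4 called genes with the largest change that were well above background in both groups, and not all of these are named. Txnip, Cdkn1b, Foxp4, Maf, and Eomes in Treg fall outside this rule and were chosen after their values were seen. One listed gene is not reported here by name, though list counts and medians include it. Similar genes were ranked by Pearson correlation. Replicate numbers come from the sample titles. Same-numbered arrays deviated together in every pair between Treg and naive CKO cells (correlations of 0.37 to 0.49), where the replicate block changed no member's call. Correlations were also all positive, though some were weak, for CKO against WT Treg (0.08 to 0.46) and for CKO stimulation (0.09 to 0.38). The same held for WT Treg against naive cells (0.06 to 0.47).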

Additional observations from a re-analysis of the deposited data

Results flagged for a closer look

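Of 54 groups of 4 arrays examined (9 genes in 6 groups), 3 held an array whose gap to the rest exceeded Dixon's 95% value, which chance gives in about 1 group of 20. Lef1 was 6.78 on the fourth WT unstimulated array, against 6.07 to 6.18 on the other 3. Id3 was 1.92 on the fourth CKO stimulated array, against 2.49 to 2.56 on the others. Ets1 was 5.88 on the second CKO unstimulated array, against 6.10 to 6.12 on the others. The CKO difference was not the same in stimulated and unstimulated cells by the interaction test for Foxo1 (0.81 ± 0.16, adjusted p = 0.0061) and Satb1 (1.09 ± 0.17, adjusted p = 6.1e-04).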

How the results depend on the processing

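Of 81 results (9 genes in 9 comparisons), 62 kept their side of the threshold under all alternatives and with every array left out in turn, and of 34 called results 26 were called under all of these. The 18 stimulation calls were among those kept. With normexp background correction (offset 50) no member was called between CKO and WT in unstimulated (0) or stimulated cells (0) or for the stimulation interaction (0), where all genes called fell to 388, 1372 and 71, and 7 and 8 members were called between Treg and naive cells in CKO and WT; Satb1 was then 0.72 in stimulated cells, and the cause was not tested. In unstimulated cells 1 member was called with quantile normalization, with the authors' values, without the filter on dim probes and with only the compared arrays, and 4 were called for the stimulation interaction (Satb1, Foxo1, Lef1 and Ets1) with quantile normalization, with the percentile over probes well above background on all arrays, with the authors' values, with array weights and with the replicate block. Leaving out 1 array gave 1 to 3 members in unstimulated cells, 2 to 3 in stimulated cells and 2 to 4 for the stimulation interaction. In unstimulated cells the single member was left without replicate 2 or 3 of either group. The 3 members came without WT unstimulated replicate 4 (Id3 added). Without WT unstimulated replicate 1 or CKO unstimulated replicate 4 the 2 members were Lef1 and Id3, with Foxo1 lost. The 2 stimulated members came without WT stimulated replicate 2 (Ets1 lost), and the 4 of the interaction without CKO stimulated replicate 3.

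Directions turned only in WT Treg against WT naive cells: Bach2 -0.61 and Ets1 -0.63 with normexp, Foxo1 0.12 and Foxp1 0.36 with quantile normalization, Foxo1 0.11 and Foxp1 0.36 with the authors' values, and Foxp1 0.31 with the mean of its probes. A further 92 values that were never called changed sign. With the percentile over shared probes the median of all genes moved from -0.08 and -0.03 to -0.25 and -0.28 for stimulation in CKO and WT cells, from -0.07 and -0.09 to 0.08 and 0.14 for Treg in CKO and WT, and from -0.05 to 0.11 between CKO and WT stimulated cells, where the share of called genes that were higher was 69.5% in place of 48.2%. Between CKO and WT naive cells, and between stimulated and unstimulated WT cells, same-numbered arrays did not all deviate together (correlations of -0.31 to 0.54). The replicate block changed the calls of Lef1 (adjusted p = 0.041) and Ets1 (adjusted p = 0.025) for the stimulation interaction and no other member's call.

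Over all genes, 3088 calls between CKO and WT unstimulated cells became 1801 without the filter, 1700 with only the compared arrays, 6580 with array weights and 1385 without WT replicate 2. The 3964 calls in stimulated cells became 2382 with quantile normalization, 2377 with the authors' values, 2496 without the filter and 7470 with array weights. The 710 in Treg became 81 with normexp, 473 with probes above background on all 24 arrays and 365 with only the compared arrays. Stimulation calls fell to 5936 (CKO, main 9922) and 6757 (WT, main 10202) with normexp. Treg against naive CKO calls (main 4666) were 8845 with normexp and 11679 without the filter. The stimulation interaction (main 564) had 297 without the filter and 2565 with array weights, and the Treg interaction (main 65) between 7 with normexp and 835 with array weights. With the shared-probe percentile the higher share of calls was 54.9% in CKO against WT unstimulated cells (main 41.8%), 40.1% for WT stimulation (51.2%), and 58.2% and 60.7% for Treg in CKO and WT (40.9% and 39.1%); with normexp it was 28.9% in CKO against WT stimulated cells.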
